A study of Mus musculus with 4 samples.

Results

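The cholesterol synthesis and lipid regulation genes are 33 genes that make sterols and fatty acids, sense sterol or export it. They were listed by symbol for their known function, and their probes were found by gene name on the array. Of the 33 genes, 32 had a probe and 31 had at least 1 probe bright enough to test, out of 23468 tested genes or other names. The level of Acat2, which had no probe under that name, was not analysed here, and the probe for Abcg1 was not well above background on any array. RNA was measured in GC-1 cells, an immortalised mouse line known as a spermatogonial model, with 4 one-colour Agilent mouse 8x60k arrays. In 2 samples the cells had received a pCMV plasmid carrying murine Hdac6 with a myc/DDK tag under the CMV promoter (Hdac6 vector), and in 2 samples the empty vector. Both groups were harvested 48 h after transfection, with the medium changed after 24 h, and both grew in high-glucose DMEM with serum, which itself carries lipid. Nothing in the labels tells whether the 2 samples of a group grew apart, and the p-values therefore reflect the spread between these samples alone, possibly technical.

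Cholesterol is built from acetyl-CoA. The mevalonate steps make isoprenoid units and join them into farnesyl diphosphate, and the later steps make squalene, close it into lanosterol and trim it to cholesterol. In textbook biology the genes of both stretches are controlled together by SREBP2, and those of fatty acid synthesis mostly by SREBP1c. SREBP proteins leave the endoplasmic reticulum with the escort protein SCAP when sterol is low, and INSIG proteins hold them back when sterol is plentiful. The liver X receptors respond to oxidised sterols and switch on the transporters that export cholesterol. In the testis, cholesterol is also the precursor of steroid hormones.

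The genes of the mevalonate steps shared an order of the 4 arrays, as described further on, and the promoter stretches of 5 of them are therefore shown. SREBP proteins bind sterol regulatory elements beside sites for the factors NF-Y and Sp1. The 250 bases before the start of 25 of the 33 genes were in the RefSeq promoter table (GRCm38.p6), and 4 motifs were searched on both strands there. Capitals mark the motif, which is TCACNCCAC in Hmgcs1 and CCAAT, or its reverse complement ATTGG, in the others. Hmgcs1 lies at chr13:119690194-119690242 (+), Mvk at chr5:114444235-114444268 (+), Pmvk at chr3:89454385-89454429 (+), Mvd at chr8:122443425-122443469 (-) and Idi1 at chr13:8885572-8885605 (+).
Hmgcs1: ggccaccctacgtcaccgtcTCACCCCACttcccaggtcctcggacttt
Mvk: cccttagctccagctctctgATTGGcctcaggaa
Pmvk: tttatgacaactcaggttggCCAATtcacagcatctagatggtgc
Mvd: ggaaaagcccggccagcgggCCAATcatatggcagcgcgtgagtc
Idi1: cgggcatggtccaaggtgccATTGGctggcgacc

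TCACNCCAC, the only form of the sterol regulatory element searched, was found in 1 of the 25 promoters, that of Hmgcs1. It was in 1.22% of the promoters of 27025 genes. A CCAAT box stood in 16 of 25 promoters, against 37.5% of all genes. It was in 5 of the 6 mevalonate promoters in the table (Acat2, Hmgcs1, Mvk, Pmvk, Mvd and Idi1, without Fdps), with Acat2 the exception, and in 6 of 6 sterol promoters and in 4 of 5 promoters of the SREBP control genes. None of the 3 promoters of the efflux genes held one, and 1 of 5 in the fatty acid group did, that of Fasn. The GC box GGGCGG was in 19 of 25 promoters, against 35.4% of all genes, and the E-box CACGTG in 5 of 25, against 6.86%. These are matches of letters in a fixed window and say nothing about binding. Other forms of these motifs, and sites outside the window, were not searched.

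Each gene was read by 60-base probes. Of the genes' 65 probes, 57 were bright enough to test, and 9 probes lay across an intron, so that their full sequence is found only in spliced RNA. Of those 9, 7 were well above background on some array. The sequences of 6 of them are shown, as probes that read spliced transcripts of sterol and lipid genes. They lie on mm9, the build of the array files, at chr14:63765750-63769990 (Fdft1), chr5:4092033-4092439 (Cyp51), chr1:123203517-123203752 (Insig2), chr19:10138750-10139180 (Fads2), chr4:53048405-53049145 (Abca1) and chr7:51807934-51808069 (Nr1h2), all on the minus strand. No gene model of that build was used, so the exons are not numbered.
Fdft1: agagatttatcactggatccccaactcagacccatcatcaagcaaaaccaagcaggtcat
Cyp51: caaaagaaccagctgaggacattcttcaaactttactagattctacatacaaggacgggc
Insig2: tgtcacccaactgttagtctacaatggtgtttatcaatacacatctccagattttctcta
Fads2: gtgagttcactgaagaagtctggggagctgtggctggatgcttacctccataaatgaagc
Abca1: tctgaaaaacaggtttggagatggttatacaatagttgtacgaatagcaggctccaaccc
Nr1h2: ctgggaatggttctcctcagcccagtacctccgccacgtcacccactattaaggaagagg

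Levels are given as log2 processed signal minus the array's 75th percentile, so that 0 is the 75th percentile of the array's probes. A level can be compared between arrays for the same probe, but not between genes. The brightest tested probe stands for a gene, and differences are Hdac6 vector minus empty vector. The 75th percentile of signal was 815 and 453 on the Hdac6 vector arrays and 666 and 693 on the empty vector arrays. Between 61.0% and 66.4% of spots were well above background, none was saturated, and the number of arrays limits the precision.

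None of the 31 tested genes passed an adjusted p of 0.05 in limma's test, and none had an unadjusted p under 0.05. Over the whole array 4 of 35205 probes passed (0.0114%), 1 each for Saa1 and Saa3 and 2 for Rsrc2, all higher with the Hdac6 vector. An unadjusted p under 0.05 was found for 645 probes (1.83%). The smallest unadjusted p among the 31 lipid genes was 0.159, for Acaca, and the adjusted p of each was 1.00. The median difference of the 31 genes was 0.03 on the log2 scale, with 17 genes higher and 14 lower, against a median of 0.00 over all tested genes. With arrays scaled to their median instead, 10 of the 31 genes were higher. The median difference was then -0.07 in these 31 genes and -0.07 over all tested probes. The balance of signs, here and in the role groups described next, thus depends on the scaling. The median size of a difference without its sign was 0.125 in the lipid genes and 0.171 in all tested genes.

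**Figure D1:**
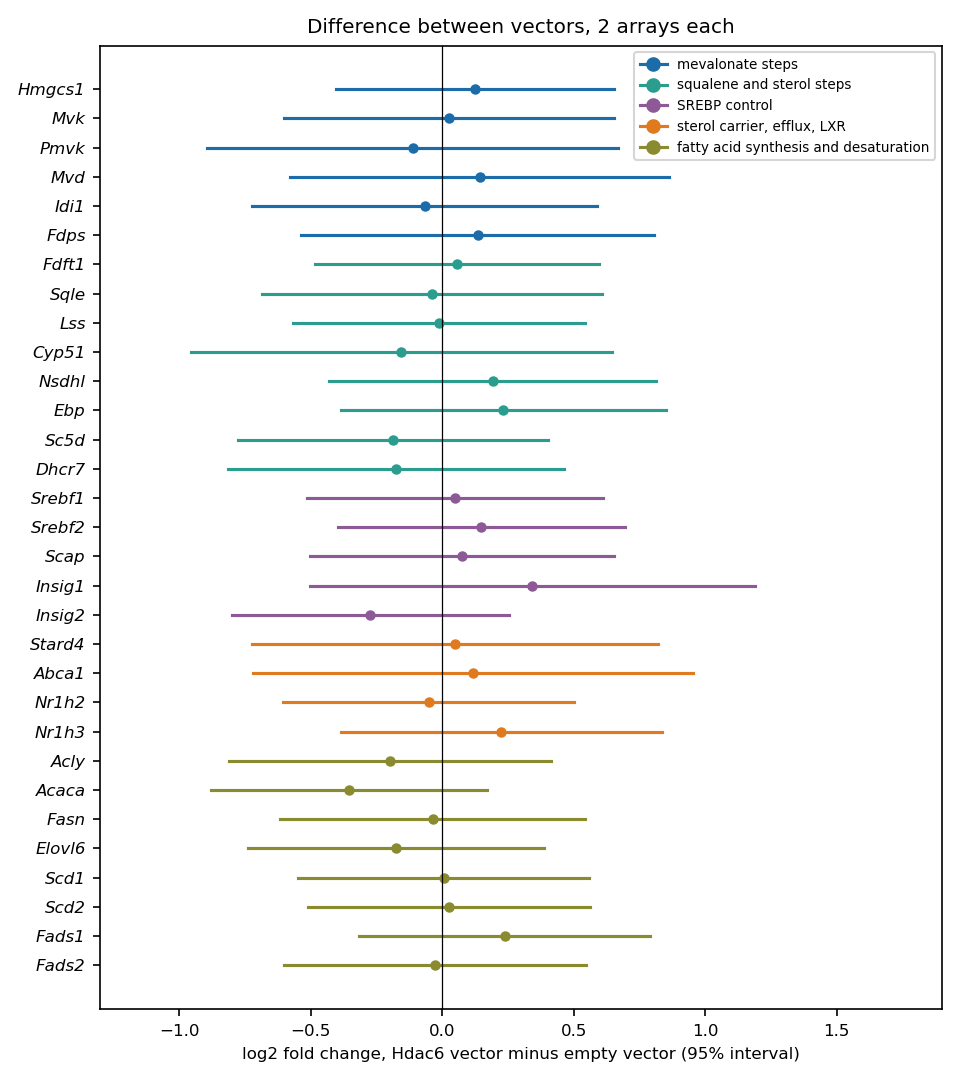
Log2 difference (Hdac6 vector minus empty vector, horizontal axis) of each of the 31 tested genes, by role, with the 95% interval of the limma fit (n = 2 arrays per group). Every interval spans 0, and the point estimates lie between -0.36 and 0.34.

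The 95% intervals of the 31 genes reached down to 0.515-fold (Cyp51) and up to 2.28-fold (Insig1). Data were simulated for the 35205 tested probes with the spread of these arrays and independent noise. In them, 50 probes each were changed 2-fold, 4-fold, 8-fold and 16-fold. The same fit recovered 0 of 50 probes changed 2-fold, 30 of 50 changed 4-fold (60%) and 48 of 50 changed 8-fold (96%). An adjusted p is easier to pass where many probes change, and only 4 probes passed in the real data. These shares may therefore overstate what could be recovered here. The 95% intervals show which differences each gene's values leave possible, whereas the simulation shows which could be called. In it, no 2-fold change was called with 2 arrays in each group. Since RNA came from whole cultures, fewer cells of a type and less RNA per cell cannot be told apart.

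The 6 measured genes of the mevalonate steps had a median difference of 0.08, with 4 higher and 2 lower and none changed. Hmgcs1, which makes HMG-CoA, was at 3.93 and 4.15 with the Hdac6 vector and at 4.0 and 3.83 with the empty vector. Mvk, mevalonate kinase, was at 4.56 and 5.14 with the Hdac6 vector and at 5.01 and 4.64 with the empty vector. In both genes the groups overlapped and Hdac6 vector array 2 was the highest. Pmvk, which adds the next phosphate, was at 3.39 and 4.16 with the Hdac6 vector and at 4.30 and 3.48 with the empty vector. Mvd, the decarboxylase that forms isopentenyl diphosphate, was at 0.09 and 0.64 with the Hdac6 vector and at 0.57 and -0.12 with the empty vector. In these too, Hdac6 vector array 2 and empty vector array 1 were the high arrays. Idi1, the isomerase of isopentenyl diphosphate, was at 2.40 and 2.97 with the Hdac6 vector and at 3.02 and 2.48 with the empty vector. Fdps, which joins the isoprenoid units into farnesyl diphosphate, was at 4.83 and 5.37 with the Hdac6 vector and at 5.27 and 4.66 with the empty vector. The gap between the arrays of one vector exceeded the difference between the vectors in all 6 genes, whichever vector is taken.

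The 8 genes of the squalene and sterol steps had a median difference of -0.02, with 3 higher and 5 lower and none changed. Fdft1, squalene synthase, was at 3.21 and 3.29 with the Hdac6 vector and at 3.37 and 3.01 with the empty vector. Its intron-spanning probe, printed above, was at 1.19 and 1.28 with the Hdac6 vector and at 1.42 and 0.75 with the empty vector. For both probes the Hdac6 vector arrays lay inside the range of the empty vector arrays. Sqle, the squalene epoxidase, was at 4.83 and 5.28 with the Hdac6 vector and at 5.39 and 4.81 with the empty vector. Lss, which closes the ring to lanosterol, was at 1.93 and 2.25 with the Hdac6 vector and at 2.24 and 1.97 with the empty vector. Both followed the array order of the mevalonate genes. Cyp51, the lanosterol demethylase, was at 1.08 and 1.67 with the Hdac6 vector and at 2.02 and 1.04 with the empty vector. Its printed intron-spanning probe was at -3.83 and -2.84 with the Hdac6 vector and at -3.02 and -4.12 with the empty vector, so that both Cyp51 probes were high on the same 2 arrays.

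Among the last sterol steps, Ebp, the sterol isomerase, had one of the 3 largest upward differences of all 31 genes. It was at 5.48 and 6.03 with the Hdac6 vector and at 5.66 and 5.39 with the empty vector, a log2 difference of 0.23 or 1.17-fold (95% interval 0.765 to 1.80, n = 2 each, limma adjusted p = 1.00). Hdac6 vector array 2 alone stood above both empty vector arrays, and Hdac6 vector array 1 lay between them. The second Ebp probe also gave 0.23. Nsdhl, a sterol dehydrogenase, was at -0.23 and -0.65 with the Hdac6 vector and at -0.69 and -0.57 with the empty vector. Sc5d, the sterol desaturase, was at 3.04 and 3.20 with the Hdac6 vector and at 3.58 and 3.04 with the empty vector. Dhcr7, which reduces 7-dehydrocholesterol to cholesterol, was at 0.03 and -0.53 with the Hdac6 vector and at -0.11 and -0.04 with the empty vector. The groups overlapped in all 3 of these, with no common array order.

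**Figure D2:**
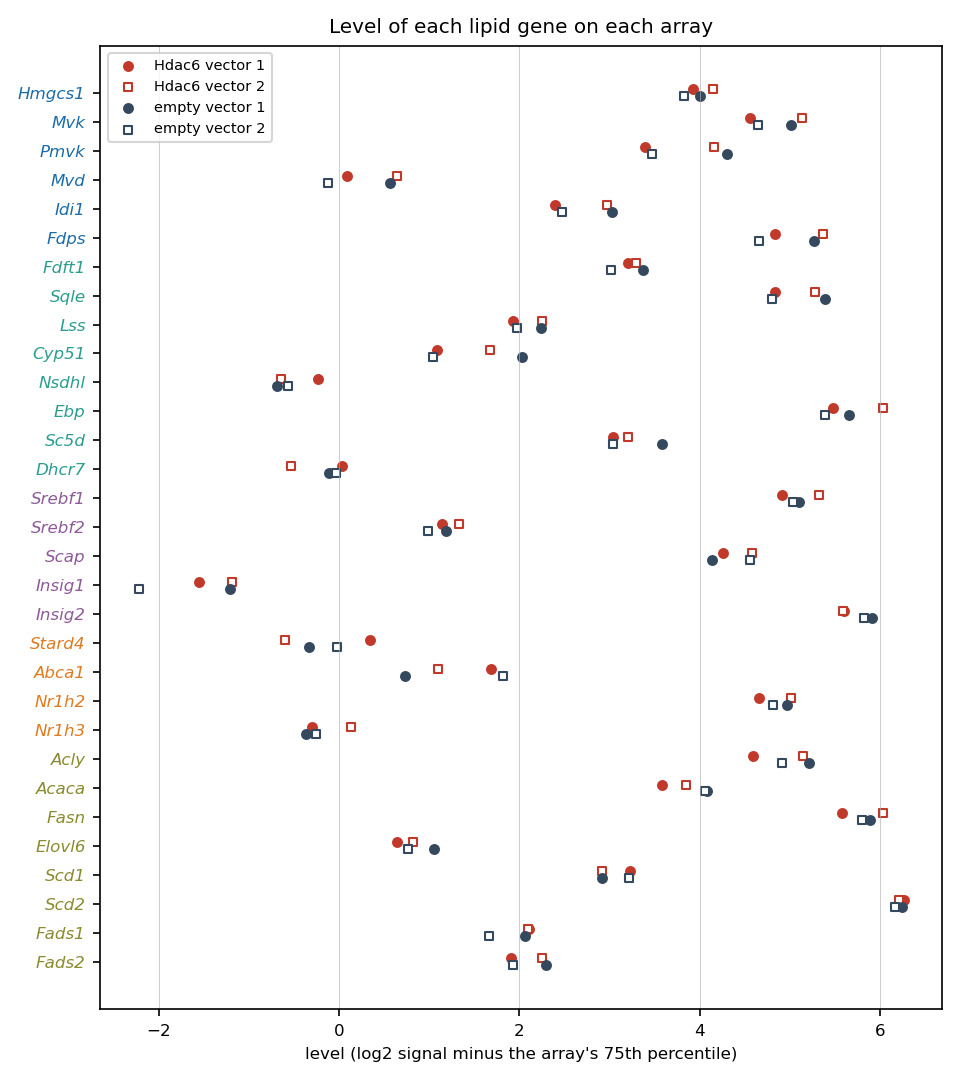
Level (log2 signal minus the array's 75th percentile, horizontal axis) of each of the 31 tested genes on the 4 arrays, with genes in rows by role, the Hdac6 vector arrays in red above the empty vector arrays in dark blue, array 1 as filled circles and array 2 as open squares. The 2 arrays of at least 1 vector lie farther apart than the means of the vectors in 29 of 31 genes.

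The 5 genes of SREBP control had a median difference of 0.07, with 4 higher and 1 lower and none changed. Srebf1, which encodes SREBP1, was at 4.91 and 5.32 with the Hdac6 vector and at 5.10 and 5.04 with the empty vector. Srebf2, which encodes SREBP2, was at 1.14 and 1.33 with the Hdac6 vector and at 1.18 and 0.99 with the empty vector. Scap, the escort protein, was at 4.26 and 4.58 with the Hdac6 vector and at 4.14 and 4.55 with the empty vector. The groups overlapped in each, with Hdac6 vector array 2 the highest, as it was in 40.0% of all tested genes. The second Srebf2 probe was at 1.20 and 1.30 with the Hdac6 vector and at 0.87 and 0.98 with the empty vector, without overlap and with a limma adjusted p of 1.00.

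The retention proteins Insig1 and Insig2 had estimates of opposite sign, neither of which passed the test. Insig1, itself an SREBP target, was at -1.55 and -1.19 with the Hdac6 vector and at -1.21 and -2.22 with the empty vector. The difference was 0.34 or 1.27-fold (95% interval 0.705 to 2.28, n = 2 each, limma adjusted p = 1.00). Empty vector array 2 was the low array, and the other 3 arrays lay within 0.37 of each other. Insig2 was at 5.60 and 5.59 with the Hdac6 vector and at 5.91 and 5.83 with the empty vector. The difference was -0.27 or 0.827-fold (95% interval 0.574 to 1.19, n = 2 each, limma adjusted p = 1.00). Both Hdac6 vector arrays were below both empty vector arrays, and the gap within each group, 0.01 and 0.08, was smaller than the difference between groups. Its other 2 probes differed by -0.19 and -0.28, the second being the printed intron-spanning probe, but for each of those the groups overlapped.

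Of the genes of sterol transport and export, 4 could be tested. Their median difference was 0.08, with 3 higher and 1 lower and none changed. Stard4, a cholesterol carrier within the cell, was at 0.34 and -0.60 with the Hdac6 vector and at -0.33 and -0.02 with the empty vector. Abca1, the transporter that passes cholesterol to apolipoproteins, was at 1.68 and 1.10 with the Hdac6 vector and at 0.73 and 1.82 with the empty vector. In both genes Hdac6 vector array 1 was above array 2 and empty vector array 2 above array 1, the opposite of the mevalonate genes. The printed intron-spanning Abca1 probe passed the scanner software's background flag on 1 Hdac6 vector array and on neither empty vector array. It was not tested. Its measured levels were -5.80 and -5.35 with the Hdac6 vector and -6.33 and -5.92 with the empty vector. The groups are given no fold for this probe, since the array that passed the flag, Hdac6 vector array 1, lay close to empty vector array 2.

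The liver X receptors were measured through both genes. Nr1h2, encoding LXR-beta, was at 4.66 and 5.02 with the Hdac6 vector and at 4.97 and 4.81 with the empty vector. The printed Nr1h2 probe was at -2.16 and -1.93 with the Hdac6 vector and at -2.09 and -2.10 with the empty vector. Nr1h3, encoding LXR-alpha, was at -0.29 and 0.13 with the Hdac6 vector and at -0.36 and -0.25 with the empty vector. The groups overlapped in all 3 probes. The second Nr1h3 probe was at -1.95 and -1.66 with the Hdac6 vector and at -2.26 and -2.25 with the empty vector, without overlap and with a limma adjusted p of 1.00.

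The 8 genes of fatty acid synthesis and desaturation had a median difference of -0.03, with 3 higher and 5 lower and none changed. Acaca, acetyl-CoA carboxylase 1, which makes malonyl-CoA, had the lowest estimate of the 31 genes. Its brightest probe, at chr11:84215093-84215152 on the plus strand of mm9, was at 3.58 and 3.84 with the Hdac6 vector and at 4.08 and 4.05 with the empty vector. The difference was -0.36 or 0.781-fold (95% interval 0.543 to 1.12, n = 2 each, limma adjusted p = 1.00). Both Hdac6 vector arrays were below both empty vector arrays. Of the other 6 Acaca probes 2 were tested, and they differed by -0.26 and 0.33, each with overlapping groups.

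Acly, which cleaves citrate to cytosolic acetyl-CoA, was at 4.59 and 5.14 with the Hdac6 vector and at 5.21 and 4.92 with the empty vector. The difference was -0.20 or 0.871-fold (95% interval 0.570 to 1.33, n = 2 each, limma adjusted p = 1.00), the groups overlapped, and the second probe also gave -0.20. Fasn, the fatty acid synthase, was at 5.58 and 6.03 with the Hdac6 vector and at 5.88 and 5.80 with the empty vector. Elovl6, which lengthens palmitate, was at 0.65 and 0.82 with the Hdac6 vector and at 1.06 and 0.76 with the empty vector. Each of these 3 genes had Hdac6 vector array 1 as its lowest array, as did Acaca and 38.0% of all tested genes.

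The desaturases put double bonds into fatty acids. Scd1 was at 3.22 and 2.92 with the Hdac6 vector and at 2.92 and 3.21 with the empty vector, and Scd2 at 6.26 and 6.21 with the Hdac6 vector and at 6.25 and 6.17 with the empty vector. The groups overlapped in both genes. Fads1, the delta-5 desaturase, was at 2.11 and 2.09 with the Hdac6 vector and at 2.06 and 1.67 with the empty vector. The difference was 0.24 or 1.18-fold (95% interval 0.804 to 1.73, n = 2 each, limma adjusted p = 1.00), and it rests on empty vector array 2, the other 3 arrays lying close together. The other 2 Fads1 probes differed by -0.26 and 0.18. The first of these was at -1.03 and -1.34 with the Hdac6 vector and at -0.83 and -1.02 with the empty vector, without overlap and in the opposite direction to the brightest probe. Fads2, the delta-6 desaturase, was at 1.91 and 2.25 with the Hdac6 vector and at 2.29 and 1.93 with the empty vector, measured by the printed probe. That probe differed by -0.03, whereas the other tested Fads2 probes differed by 0.11, 0.21, 0.33 and 0.92, each with overlapping groups.

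Groups without overlap were few when the brightest probe stood for each gene, as it also does in the shares over all tested genes. Both Hdac6 vector arrays were above both empty vector arrays in 1 of 31 genes, Fads1, against 12.3% of all tested genes. They were below in 2 of 31 genes, Insig2 and Acaca, against 12.8% of all tested genes. By the brightest probe the groups overlapped in the other 28 genes. Dimmer tested probes of some genes were without overlap. They were higher with the Hdac6 vector for Mvk, Sqle, Lss, Nsdhl, Srebf2 and Nr1h3. They were lower for another Lss probe and for Acly, Scd1 and Fads1. The share of dimmer probes without overlap over the whole array was not computed, so whether these are many cannot be judged. The gap between the 2 arrays of at least 1 group exceeded the difference between the groups in 29 of 31 genes (93.5%) and in 85.5% of all tested genes.

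Several probes of one gene often gave different signs. Of the 19 genes with more than 1 tested probe, 9 had probes of both signs. The widest gap between probes was in Fads2, 0.94 on the log2 scale, and no gene had a gap over 1. It came from a dim probe at chr19:10161035-10161094, on the minus strand of mm9, at -2.24 and -3.11 with the Hdac6 vector and at -4.59 and -2.59 with the empty vector. Hdac6 vector array 1 was its highest array and empty vector array 1 its lowest, and the groups overlapped. The dimmer of the Scd1 probes lies on the opposite strand to the brighter one, so it need not read the same RNA.

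**Figure D3:**
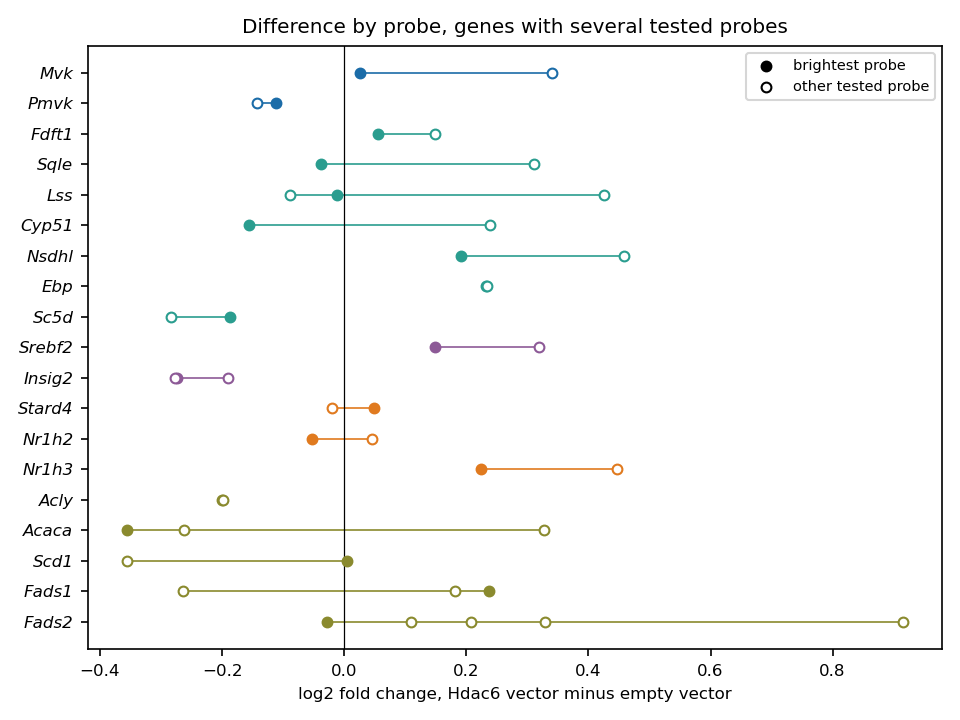
Log2 difference (Hdac6 vector minus empty vector, horizontal axis) of every tested probe of the genes with more than 1 tested probe, with the brightest probe filled, the other probes open and the colours by role. Probes of both signs occur in 9 of the 19 genes, and the 2 probes of Acly and of Ebp coincide.

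The mevalonate genes differed more within a group than between groups, and they did so in the same way. Hdac6 vector array 2 and empty vector array 1 were above the gene's own mean of the 4 arrays, and Hdac6 vector array 1 and empty vector array 2 below it, in 6 of 6 mevalonate genes. This order was noticed after the values were seen and is given as a description with no test. It held in 5 of 8 sterol genes, 3 of 5 SREBP control genes, 3 of 8 fatty acid genes and 1 of 4 efflux genes, which makes 18 of 31 in all, against 23.0% of all tested genes. For the mevalonate genes the median step was 0.56 on the log2 scale between Hdac6 vector array 2 and array 1, and 0.58 between empty vector array 1 and array 2. Over all tested genes those steps were 0.20 and 0.02. Over the 14 measured enzymes of cholesterol synthesis they were 0.49 and 0.46, and 11 of the 14 had the order. Under the other scalings and gene summaries tried, the order held in 5 or 6 of 6 mevalonate genes, in 8 to 10 of 14 enzymes and in 14.5% to 25.6% of all tested genes.

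**Figure D4:**
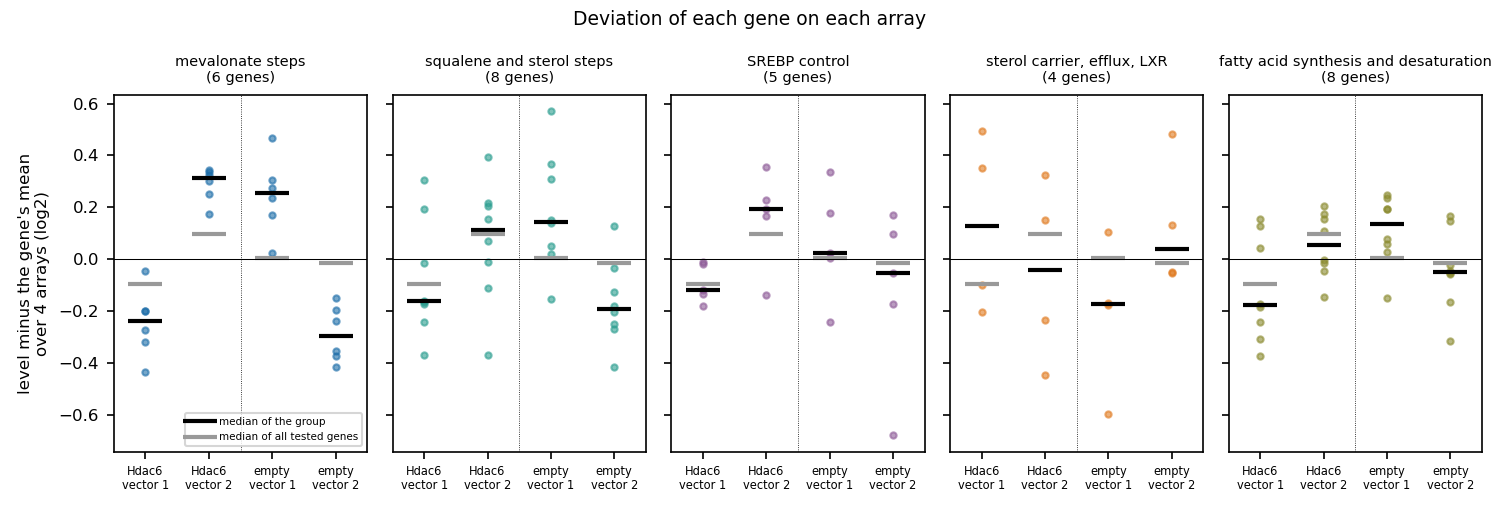
Deviation of each gene from its own mean of the 4 arrays (log2, vertical axis) on each array, by role group, Hdac6 vector arrays left of empty vector arrays, with the group's median in black and that of all tested genes in grey. The mevalonate genes lie above 0 on Hdac6 vector array 2 and empty vector array 1 and below 0 on the other 2 arrays.

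In both groups, the summed levels of some cell type markers differed between arrays in the direction of the mevalonate genes. These were the spermatogonial, Sertoli cell and meiotic germ cell markers, and of the meiotic ones only Spo11 was well above background on all 4 arrays. The sums for spermatids, Leydig cells, peritubular cells and fibroblasts, macrophages and leukocytes, endothelium, and adipocytes and hepatocytes did not do so in both groups. Each direction alone was common. Of 23468 tested genes, Hdac6 vector array 2 was above array 1 in 15999, and empty vector array 1 was above array 2 in 12232. The summed signal of 16 spermatogonial markers, as log2 relative to the 75th percentile, was 4.26 and 4.71 on the Hdac6 vector arrays and 5.35 and 4.36 on the empty vector arrays. That of 8 Sertoli cell markers was 8.12 and 8.67 on the Hdac6 vector arrays and 8.67 and 8.29 on the empty vector arrays. Both sums were higher on Hdac6 vector array 2 and empty vector array 1. They are set mostly by the brightest markers, Uchl1 and Etv5 for spermatogonia and Clu and Wt1 for Sertoli cells, and not every marker had that order. Gata4, a Sertoli cell marker, was at -0.38 and -0.70 with the Hdac6 vector and at -0.55 and -0.15 with the empty vector, the opposite order. The spermatogonial markers Zbtb16, Dmrt1 and Sohlh1 were lower on empty vector array 1 than on empty vector array 2. The part of these cell types in the order of the mevalonate genes was not tested. As for the labelled cell type, 9 of 16 spermatogonial markers were well above background on all 4 arrays, and Kit, Dazl and Ret on none. Over the whole array, 32593 of 56590 probes were, and a marker with several probes needed only 1 of them on each array. The spermatogonial count lay near that share and does not identify the cells. Of 5 spermatid markers, 4 were well above background on all 4 arrays, with Acrv1 on none. All 7 peritubular and fibroblast markers and 5 of 8 Sertoli markers were well above background on all 4 arrays, with Amh and Cldn11 on none, and so were 5 of 6 macrophage and leukocyte markers, with Adgre1 on none.

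Hdac6 itself was read by 1 probe, at chrX:7507249-7507308 on the minus strand of mm9. It was at 2.62 and 3.24 with the Hdac6 vector and at 3.31 and 2.83 with the empty vector, or 0.909-fold (95% interval 0.578 to 1.43, limma adjusted p = 1.00). The groups overlapped. The probe holds the polyadenylation signal AATAAA starting at base 34 of 60 and thus targets the 3′ end of the natural transcript. The sources used here do not tell whether the plasmid insert carries that stretch, and the probe therefore cannot check the labels. Hdac6 too was highest on Hdac6 vector array 2 and empty vector array 1.

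A further 43 genes of the same pathways were listed with earlier results of these data known, among them esterases and other sterol enzymes. Of these 39 were tested and 0 passed, with 16 higher, 23 lower and a median difference of -0.10. The array order of the mevalonate genes was found in 13 of the 39. The estimates farthest from 0 were those of Nceh1, a cholesteryl ester hydrolase, at 0.63, and Soat2, which esterifies cholesterol, at -0.49. Nceh1 was at 1.71 and 1.05 with the Hdac6 vector and at -0.12 and 1.61 with the empty vector. Soat2 was at -1.77 and -1.78 with the Hdac6 vector and at -1.34 and -1.23 with the empty vector. The groups overlapped for Nceh1 and did not for Soat2, and neither passed the test.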

How the data were processed

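Per the labels' protocols, oligo-dT priming of total RNA was followed by Cy3 labelling of the amplified RNA. Per the file headers, the authors deposited scanner files with spot intensity extracted by Agilent Feature Extraction 11.5.1.1, and the processed intensity is background-subtracted but not scaled between arrays. They also deposited a log2 table, in which each of the 37060 rows is a gene name. The sources used here do not state the steps behind it. Its columns equalled log2 processed intensity less a constant (tolerance 0.01) in at least 99.78% of 25179 rows with 1 probe. Its column medians were -3.71 and -3.68 for the Hdac6 vector and -3.78 and -3.67 for the empty vector. It served as an alternative.

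Spots of a probe were averaged after flagged outlier spots were left out, which removed 15 of 56605 probes. Log2 intensity minus each array's 75th percentile over non-control probes was used. Names came from the RefSeq table for 43730 probes, and 12860 kept the name in the files. Tested probes were those that the scanner flagged as well above background on both arrays of a group. All 4 arrays lay on 1 slide.

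limma 3.58.1 (R 4.3.3) compared the groups (lmFit, eBayes with trend, two-sided, Benjamini-Hochberg over 35205 probes), and a call needs an adjusted p under 0.05. The fit had 2 residual degrees of freedom and borrowed 7.08 from the other probes, and all intervals are at the 95% level. In simulated data 7 unchanged probes were called. The genes, lists and rules were chosen with earlier results of these data known. Fold changes are given for the 3 largest differences each way, and levels for all tested genes. Same-numbered arrays deviated from their group means with a correlation of -0.356, so the numbers were not taken to pair samples. Alternatives were another background correction, 3 other scalings, 2 other filters, no trend, the replicate block, the authors' table, the mean of probes and leaving out each array.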

Additional observations from a re-analysis of the deposited data

How the results depend on the processing

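None of the 31 genes was called under any alternative. Their median log2 difference stayed between -0.14 and 0.15. The number of tested probes called, 4 as reported, was 28 with normexp, 2 with quantile normalization, 2 without the trend in the spread, 2 for the mean of a gene's probes, 19 in the authors' deposited table and 22 with the replicate block. A crossed block, chosen after seeing the data because same-numbered arrays correlated below 0, gave 14. It was 0 with median scaling (727 probes at an unadjusted limma p under 0.05) and 0 with the percentile over probes detected on all arrays (643 probes). The filters gave 5 without any and 3 with all 4 arrays required. Leaving out 1 array gave 0 to 300 called probes. It gave 300 without empty vector array 2, 12 without empty vector array 1, and 0 without Hdac6 vector array 1 (1424 at an unadjusted p under 0.05) or array 2 (654). With an array left out, a group of 1 array is assumed to vary like the other.

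Among the 6 genes with the largest differences, leaving out 1 array turned the sign of Acly (-0.47 to 0.075), Ebp (-0.045 to 0.51) and Insig1 (-0.17 to 0.85). Acaca and Fads1 turned to 0.50 and -0.030 in the authors' deposited table. Over the 31 genes the sign turned in 24 with some array left out and in 16 under another setting, and it never turned in 5 (Hmgcs1, Srebf2 and Nr1h3 higher, Insig2 and Elovl6 lower). The cause was not tested. The number of arrays limits all of these values.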

Other observations

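The authors' deposited table gives 1 value per gene name, which for 31 of the 31 lipid genes with a detected probe lay within 0.01 of the mean over the probes well above background on that array. For 3 genes, Nsdhl, Acaca and Abca1, the set of detected probes differed between arrays. Abca1 stood at -1.79 and 1.20 with the Hdac6 vector and at 1.01 and 2.08 with the empty vector in the authors' deposited table, a difference of -1.84. Its brightest probe alone was at 1.68 and 1.10 with the Hdac6 vector and at 0.73 and 1.82 with the empty vector. Nsdhl differed by 1.43 and Acaca by 0.50 in the authors' deposited table, while the brightest Acaca probe differed by -0.36. Nsdhl stood at -2.46 and -0.54 with the Hdac6 vector and at -3.09 and -2.76 with the empty vector in the authors' deposited table, and 2 of its probes were detected on every array except Hdac6 vector array 2, where 1 was.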
